A study of Mus musculus with 24 samples.

Results

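The genes described here are 8 members of the complement and pentraxin system: Ptx3, Cfp, C3, Cfb, C3ar1, C5ar1, Serping1 and Cd55. They are 8 of the 55487 genes in the deposited tables, were taken by gene symbol, and all 8 passed the filter on low counts that left 14535 genes for testing. Ptx3 and Cfp entered the set because their levels differed between the genotypes on day 7, so every value that rests on the day 7 libraries is given for these genes as a description, without a test. The day 7 contrast between genotypes is likewise only described for the other 6.

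Complement is a cascade of plasma and locally made proteins that marks microbes and debris and calls in phagocytes. C3 is its central substrate, factor B (Cfb) and properdin (Cfp) build and steady the alternative pathway enzyme that cleaves C3, and the fragments released from C3 and C5 act on the G-protein-coupled receptors C3aR (C3ar1) and C5aR1 (C5ar1). Ptx3 is a long pentraxin, a soluble pattern-recognition protein made by myeloid and stromal cells, while C1 inhibitor (Serping1) and decay-accelerating factor (Cd55) hold the cascade back. Dendritic cells and macrophages make several of these proteins themselves.

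Messenger RNA was sequenced from bone-marrow-derived dendritic cells, grown from the marrow of male and female mice aged 8 to 10 weeks under the growth factor GM-CSF. All mice carried floxed alleles of Arpc4, whose product is part of Arp2/3, the complex that starts branched actin filaments; those without the CD11c-Cre transgene are called WT, and those with 1 copy of it are called KO. The series compared how these cultures differentiate, with a library on each day from day 7 to day 10, the last day standing for the mature state, and 3 mice in each of the 8 groups. CD11c-Cre recombines floxed DNA in cells that express CD11c, so marrow progenitors and CD11c-negative cells keep the gene. Cells were replated on day 7, adherent cells were discarded at harvest, and per the labels more than 9 in 10 of the recovered cells carried CD11c. In such bulk libraries, fewer cells of a type and less RNA per cell cannot be told apart.

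The targeted gene was read first. Arpc4 lay at 188 to 270 CPM (counts relative to library size, with TMM factors) in the 12 WT libraries and at 155 to 231 CPM in the 12 KO libraries, and on each single day every KO library was below every WT library. The log2 fold change of Arpc4, KO against WT, was -0.19 on days 7 and 8, -0.18 on day 9 and -0.28 on day 10, and none passed the threshold (adjusted p from 0.18 to 0.69). The count covers the whole gene and the floxed part is not given in the sources used here, so it checks the genotype labels only in part. Total counts ran from 19952047 to 31049798 per library. None of the 10 dendritic cell, 10 macrophage, 10 neutrophil, 6 basophil and mast cell or 5 B cell markers was at 0 in any library, while each of the 4 T cell and 5 erythroid markers was at 0 in at least 1. In 8 libraries, 1 per group, the Y-linked gene Ddx3y was at 56.5 to 83.9 CPM and Xist at 0.0401 to 0.427 CPM, whereas Xist lay at 496 to 948 CPM in the other 16. The high-Ddx3y library was mouse 63 on every day in WT, but in KO it was mouse 64 on days 7 and 9, mouse 68 on day 8 and mouse 67 on day 10, so the KO numbers do not follow 1 animal across days.

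The promoters below are those of Ptx3 and Cfp, the pair that moved in opposite directions between genotypes on day 7, of C3, the shared substrate, and of C3ar1, a receptor for its fragment. Each is the 250 bases before the RefSeq start on GRCm38.p6, read 5′ to 3′ on the gene's strand, and 6 of the 8 members were matched in the RefSeq promoter table. Capitals mark matches to the motifs named after the sequences.
Ptx3, chr3:66219637-66219886, plus strand: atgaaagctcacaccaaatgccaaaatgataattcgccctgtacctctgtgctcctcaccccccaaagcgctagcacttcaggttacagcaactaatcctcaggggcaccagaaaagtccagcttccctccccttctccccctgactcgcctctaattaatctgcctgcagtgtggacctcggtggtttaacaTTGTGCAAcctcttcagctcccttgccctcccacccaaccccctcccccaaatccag
Cfp, chrX:20931556-20931805, minus strand: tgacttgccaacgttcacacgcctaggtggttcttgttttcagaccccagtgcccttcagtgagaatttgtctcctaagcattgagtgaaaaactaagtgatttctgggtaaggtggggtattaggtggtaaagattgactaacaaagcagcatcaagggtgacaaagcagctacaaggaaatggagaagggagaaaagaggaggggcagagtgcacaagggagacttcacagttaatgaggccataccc
C3, chr17:57228137-57228386, minus strand: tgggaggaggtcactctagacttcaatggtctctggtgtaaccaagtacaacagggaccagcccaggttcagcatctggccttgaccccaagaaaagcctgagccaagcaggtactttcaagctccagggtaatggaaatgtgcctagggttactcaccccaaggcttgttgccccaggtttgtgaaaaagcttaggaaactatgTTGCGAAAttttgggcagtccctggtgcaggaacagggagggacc
C3ar1, chr6:122856158-122856407, minus strand: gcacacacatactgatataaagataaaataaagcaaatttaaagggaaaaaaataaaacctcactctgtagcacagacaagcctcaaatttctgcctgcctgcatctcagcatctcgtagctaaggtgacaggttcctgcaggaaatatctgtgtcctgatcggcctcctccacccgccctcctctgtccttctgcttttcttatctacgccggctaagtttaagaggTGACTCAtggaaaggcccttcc

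Motifs were searched on both strands in the 6 windows. The C/EBP letters TTGCNNAA matched as TTGTGCAA, read on the other strand, 57 bases before the Ptx3 start, and as TTGCGAAA, 45 bases before the C3 start. The AP-1 letters TGANTCA matched as TGACTCA 22 bases before the C3ar1 start. The windows of Cfp, C5ar1 and Cd55 held none of the 6 motifs searched. Among 32851 promoter windows of the same length, 9.56% held the C/EBP letters, 6.75% AP-1, 0.356% an NF-kB motif, 2.98% an ISRE, 3.45% the ATF4 element TGATGNAA and 2.44% the PU.1 letters GAGGAAGT. No matches shared bases in any of the 6 windows. A match is a description of the letters and not of binding.

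The genes lie on 7 chromosomes of GRCm38 in the GENCODE M21 annotation, and all are protein-coding. Ptx3 (ENSMUSG00000027832.5) is at 3:66219910-66225805 on the plus strand. The others are on minus strands: Cfp (ENSMUSG00000001128.7) at X:20925454-20931555, C3 (ENSMUSG00000024164.15) at 17:57203970-57228136, and Cfb (ENSMUSG00000090231.10) at 17:34856374-34862518. C3ar1 (ENSMUSG00000040552.8) is at 6:122847138-122856161, C5ar1 (ENSMUSG00000049130.6) at 7:16246743-16259540, Serping1 (ENSMUSG00000023224.12) at 2:84765387-84775444, and Cd55 (ENSMUSG00000026399.12) at 1:130439027-130462744. A read-through gene, Gm20547, covers Cfb on the same strand and had 0 counts in all libraries, so Cfb reads that fit both may have been dropped and its level is uncertain. The antisense gene Gm16083 held 7 counts in all libraries, 0.212% of the Cd55 total.

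On the length-scaled TPM scale, which allows levels of different genes to be set side by side, properdin was the most abundant of the 8 and the set spanned a wide range. Group means of Cfp ran from 492 to 1568 TPM, and those of C3 from 257 to 539 TPM. The receptors overlapped C3, with C3ar1 at 189 to 347 TPM and C5ar1 at 130 to 354 TPM, and on day 7 in WT both were above C3 (257 ± 26.4 TPM, SD, n = 3). They also traded places with each other: on day 7 in WT, C5ar1 (304 ± 10.3 TPM, SD, n = 3) was above C3ar1 (281 ± 17.7), and on day 10 in WT C3ar1 (189 ± 23) was above C5ar1 (130 ± 18.2). Ptx3 was next at 10.5 to 40.4 TPM, then Cd55 at 2.21 to 4.18 TPM. Serping1, at 0.513 to 0.980 TPM, and Cfb, at 0.277 to 0.760 TPM, came last and overlapped each other. The messages for the cascade's substrate, its stabiliser and its receptors were abundant in these cultures, and few reads were counted for its C1 inhibitor and for factor B, whose level is uncertain as said above.

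**Figure D1:**
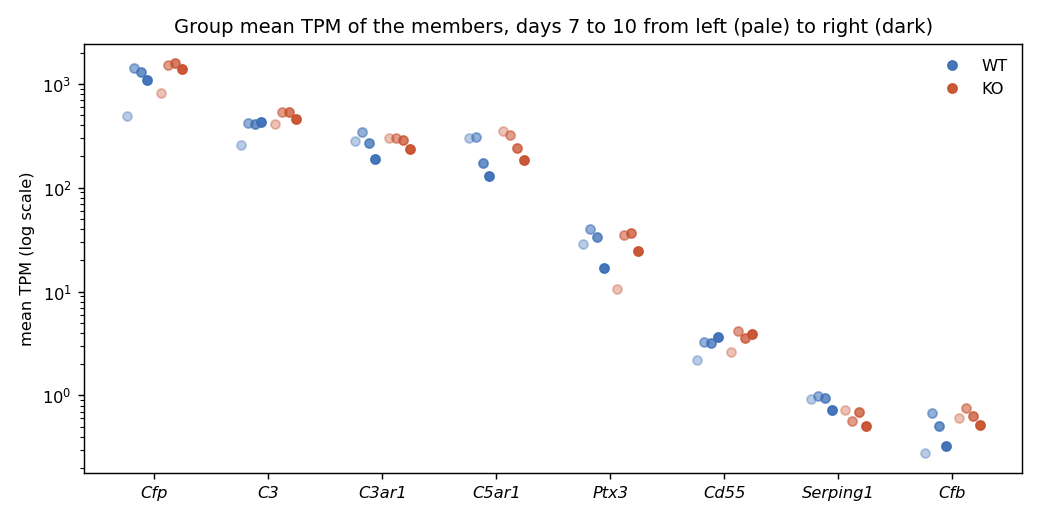
Group mean TPM (log axis) of each member, WT in blue and KO in orange, with days 7 to 10 drawn from left (pale) to right (dark). Each point is the mean of 3 libraries. Cfp holds the highest points (492 to 1568 TPM) and Cfb and Serping1 the lowest, all under 1 TPM.

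Ptx3, the soluble pattern-recognition protein, was lower in KO on day 7 without overlap between the groups, and the groups overlapped the next day. On day 7 it was at 25.6, 34.97 and 26.6 CPM in WT mice 63, 65 and 66, and at 10.4, 9.86 and 10.3 CPM in KO mice 64, 67 and 68. All KO libraries were below all WT libraries, and the KO values were close together. These are the values that chose the gene; their log2 fold change, KO against WT, was -1.51 (SE 0.18), a level 2.85-fold lower.

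On day 8 Ptx3 stood at 30.7, 39.7 and 34.0 CPM in WT and at 32.5, 28.4 and 26.8 CPM in KO. The groups now overlapped. KO had moved by a log2 fold change of 1.52 (SE 0.18) from day 7 and WT by 0.26 (SE 0.17), given as a description since day 7 chose the gene. Day 9 levels were 22.9, 34.5 and 26.7 CPM in WT and 28.0, 28.7 and 30.2 CPM in KO. On day 10 they were 11.3, 17.4 and 13.5 CPM in WT and 21.8, 21.2 and 15.2 CPM in KO. By then 2 of the 3 KO libraries were above all WT libraries, and the third lay within the WT range, so the order of day 7 was no longer present.

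The tests that did not use day 7 found no difference of Ptx3 between genotypes past the threshold, an edgeR quasi-likelihood adjusted p under 0.05 over all genes tested. On day 8 its log2 fold change, KO against WT, was -0.25 (single-gene 95% interval -0.60 to 0.09, adjusted p = 0.91). On day 9 it was 0.05 (-0.30 to 0.40, adjusted p = 0.98). On day 10 it was 0.47 (0.11 to 0.82, adjusted p = 0.47), an interval that stays above 0 for the gene taken alone but does not pass over all genes. The sign moved from lower to higher in KO across these days. The difference between KO and WT of the change from day 8 to day 10 was 0.72 log2 units for Ptx3 (SE 0.24, edgeR adjusted p = 1; 0.0068 before adjustment). In that test 0 of the 8 members and 0% of all genes were called, with 326 of 14535 genes at an unadjusted p under 0.05; DESeq2 and limma also called 0 members.

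Within WT, Ptx3 fell between days 9 and 10, by 1.00 on the log2 scale (SE 0.17, adjusted p = 0.0048), with no overlap between the days, as for 25.9% of all genes tested. It was the 1 of 8 members called in that comparison, in which 3.6% of all genes tested were called. Without mouse 63 the same fall of 0.99 missed the threshold (adjusted p = 0.11). In KO the same step gave -0.58 (SE 0.17, adjusted p = 0.15), also with no overlap between the days (13% of all genes), and 0 of 8 members were called where 0.0963% of all genes were. With the mouse number as a replicate block the KO value was -0.59 and passed (adjusted p = 0.035), as it did without mouse 67 (-0.67, adjusted p = 0.047). The high-Ddx3y KO library was mouse 64 on day 9 and mouse 67 on day 10, so these numbers do not pair the same animals. Deviations from the group means correlated between these days with r of -0.753 for number 64, -0.785 for 67 and 0.471 for 68. Without mouse 67, 2090 of all genes were called in this step, beside 14 in the main fit. The WT and KO steps were not tested against each other. From day 7 to day 10 the net change was -1.05 log2 units in WT (SE 0.17) and 0.93 in KO (SE 0.17), both descriptions.

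**Figure D2:**
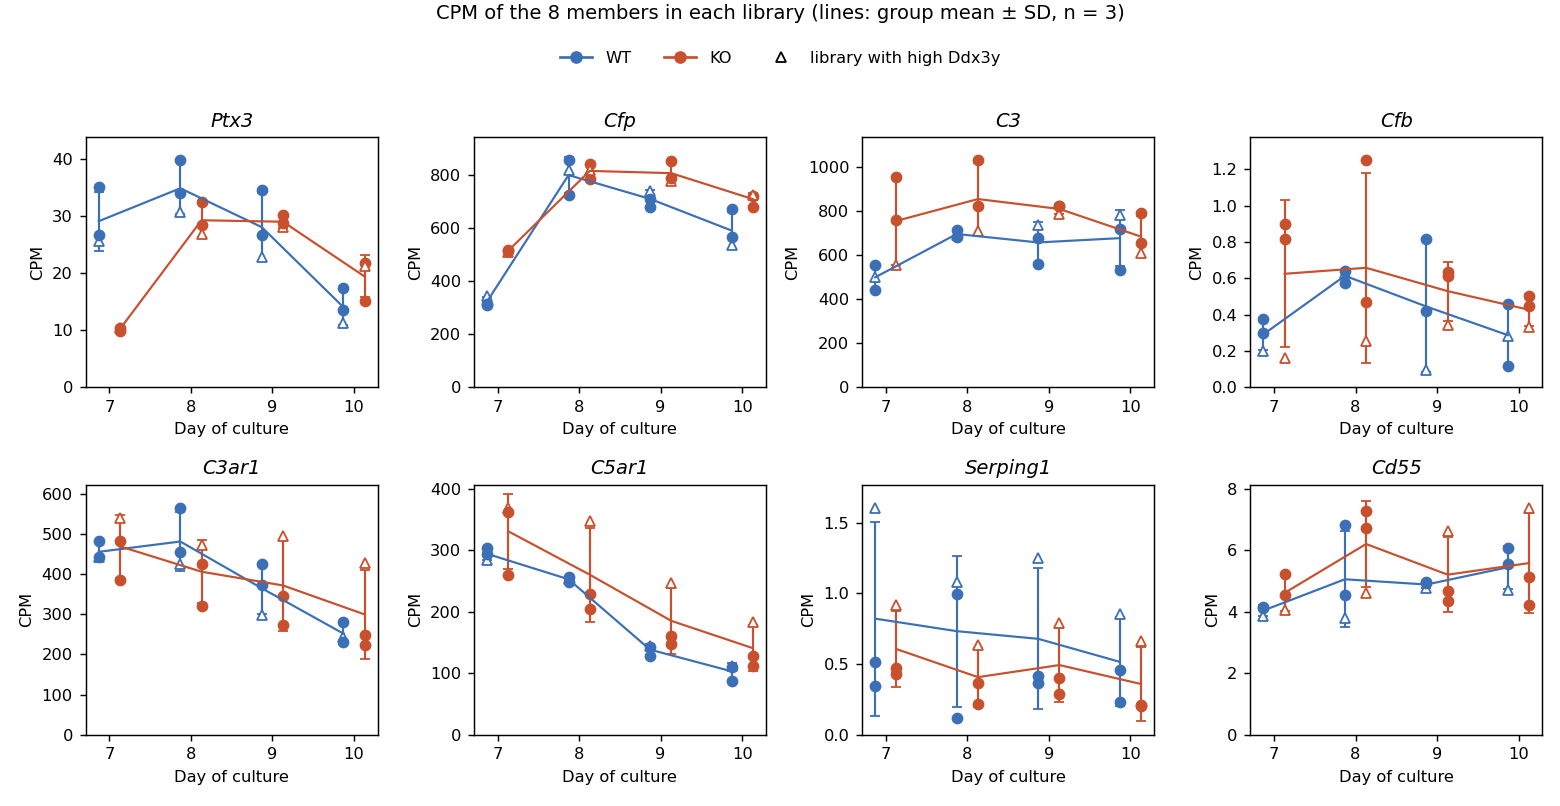
CPM of each member in each library against day of culture, WT in blue and KO in orange. Lines join group means, bars are ± SD (n = 3), and open triangles mark the high-Ddx3y library of each group. In the Ptx3 panel the KO libraries start at 9.86 to 10.4 CPM, below the WT libraries at 25.6 to 34.97 CPM, and the groups overlap from day 8 on.

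Among the alternative pathway genes, properdin moved the other way from Ptx3 on day 7. Properdin, encoded by the X-linked gene Cfp, is the positive regulator that stabilises the C3 convertase. On day 7 Cfp was at 342, 314 and 311 CPM in WT and at 510.3, 512 and 518 CPM in KO. Every KO library was above every WT library. The log2 fold change was 0.67 (SE 0.082), or 1.59-fold higher in KO, which again describes the values that chose the gene.

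From day 8 the genotypes lay close together at a higher level of Cfp. WT libraries were at 817, 724 and 854 CPM on day 8, and KO libraries at 785, 838 and 819 CPM. From day 7 to day 8, the log2 fold change of Cfp was 1.31 (SE 0.083) in WT and 0.67 (SE 0.082) in KO, as a description. Day 9 gave 740.1, 709 and 677 CPM in WT and 777, 850.3 and 789 CPM in KO. Day 10 gave 535, 565 and 669 CPM in WT and 719.9, 724 and 679.8 CPM in KO. All KO libraries exceeded all WT libraries on days 9 and 10, by a small margin.

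None of these later differences in Cfp passed the threshold over all genes. The log2 fold change, KO against WT, was 0.03 on day 8 (95% interval -0.14 to 0.20, adjusted p = 0.99). It was 0.19 on day 9 (0.02 to 0.35, adjusted p = 0.55). On day 10 it was 0.26 (0.09 to 0.43, adjusted p = 0.38), or 1.2-fold, so the interval for the gene alone reaches no more than 1.35-fold. The groups did not overlap for Cfp, C3 and C5ar1 on day 9, which makes 3 of 8 members beside 14.1% of all genes tested. On day 10 that held for Cfp alone, 1 of 8, beside 10.4% of all genes. On day 8 it held for 0 of 8, beside 9.39%.

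From day 9 to day 10, Cfp changed by -0.27 log2 units in WT (SE 0.081, adjusted p = 0.077) and by -0.19 in KO (SE 0.081, adjusted p = 0.36), neither past the threshold. With the DESeq2 Wald test the WT value passed (adjusted p = 0.017), as it did in edgeR without mouse 66, where it was -0.42 (adjusted p = 0.037). With each mouse left out, the WT value spanned -0.42 to -0.17 (edgeR adjusted p 0.037 to 0.57). The difference between genotypes of the change of Cfp from day 8 to day 10 was 0.24 (SE 0.11, edgeR adjusted p = 1; 0.054 before adjustment). Net change from day 7 to day 10 was 0.87 in WT (SE 0.082) and 0.46 in KO (SE 0.081), so both ended above their start.

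C3, the substrate of the cascade, was also higher in KO on day 7. It lay at 500.3, 442 and 553 CPM in WT and at 553, 951 and 758 CPM in KO, with the lowest KO library just above the highest WT one. The log2 fold change was 0.60 (SE 0.17), a description since the day 7 contrast chose the set. Ptx3, Cfp and C3 were the 3 of 8 members whose day 7 groups did not overlap. Ptx3 and Cfp were chosen for differing on that day, so their count says nothing about the set. Among the other members C3 alone did not overlap, as held for 26.2% of all genes tested, and 1.45% of all genes were called on that day.

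On later days the C3 genotype difference was not past the threshold. WT libraries were at 688, 681 and 714 CPM on day 8, 736, 557 and 675 CPM on day 9, and 779, 532 and 716 CPM on day 10. KO libraries were at 1029, 824 and 706 CPM, then 784, 820 and 821 CPM, then 652, 609 and 788 CPM. All KO libraries were above all WT libraries on day 9, and the groups overlapped on days 8 and 10. The log2 fold change of C3 was 0.30 on day 8 (-0.06 to 0.66, adjusted p = 0.88), 0.30 on day 9 (-0.06 to 0.66, adjusted p = 0.71) and 0.02 on day 10 (-0.35 to 0.38, adjusted p = 0.99).

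In WT, C3 rose from day 7 to day 8 by 0.48 log2 units (SE 0.17, adjusted p = 0.031), the 1 call among the 6 members that could be tested there. Of all genes, 43.4% were called in that comparison. The call was lost without any 1 of the 3 WT mice (adjusted p 0.11 without 63, 0.12 without 65, 0.085 without 66). The KO value was 0.18 (SE 0.17, adjusted p = 0.44), and 0 of the 6 were called beside 42% of all genes. Cfb, the protease of the alternative pathway convertase, was counted at 2 to 34 reads per library, 0.0964 to 1.25 CPM, and was called in none of the tested comparisons. In WT its values on day 8 (0.629, 0.574 and 0.638 CPM) were all above those on day 7 (0.201, 0.375 and 0.300 CPM), as the groups of 59.8% of all genes did not overlap in that comparison, and the step did not pass the threshold (adjusted p = 0.20).

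**Figure D3:**
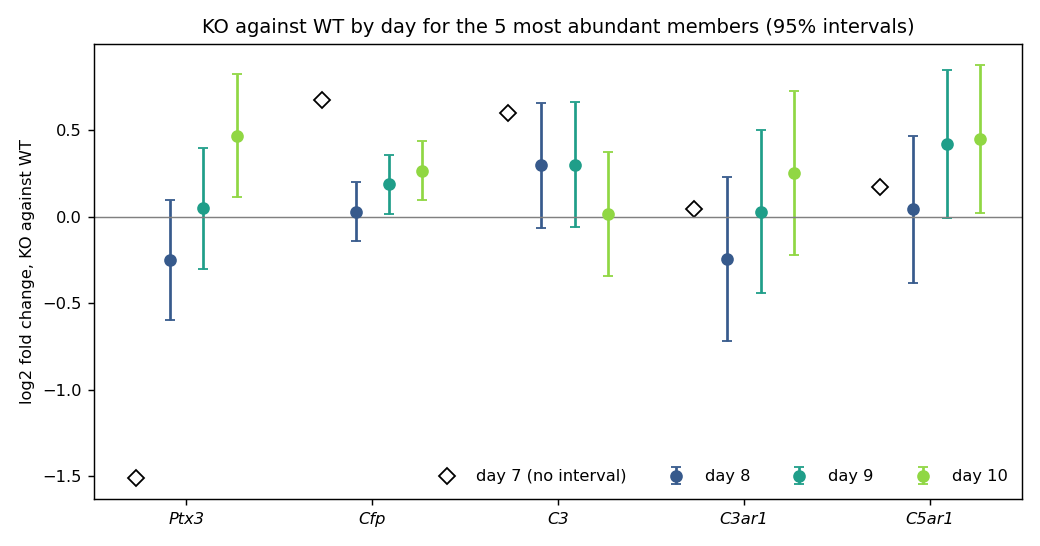
Log2 fold change, KO against WT, for the 5 most abundant members by day. Filled points carry single-gene 95% intervals that are not adjusted over genes; open diamonds are day 7 values, shown with no interval because that contrast chose the set. Day 7 reaches -1.51 for Ptx3 and 0.67 for Cfp, and the later values lie between -0.25 and 0.47.

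The anaphylatoxin receptors fell together in the course of the culture, in both genotypes. C5aR1 binds the fragment C5a and draws phagocytes to it. C5ar1 was at 284, 294 and 304 CPM in WT on day 7 and at 111, 87.3 and 111 CPM on day 10. In KO it was at 369, 260.3 and 363 CPM on day 7 and at 111, 183 and 128 CPM on day 10. Day 10 lay below day 7 in every library of each genotype, and from day 7 to day 10 the groups of 51.7% of all genes in WT and 43.2% in KO did not overlap.

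From day 7 to day 10 the level of C5ar1 in WT fell by 1.51 on the log2 scale (SE 0.21, adjusted p = 1.5e-05), and in KO it changed by -1.23 (SE 0.21, adjusted p = 0.00012). Both calls held under all 14 alternative settings. In WT the drop was called between days 8 and 9 (-0.87, SE 0.21, adjusted p = 0.02), from 252, 257 and 249 CPM to 145, 142 and 128 CPM. That was the 1 of 8 members called, beside 5.4% of all genes, and the call was lost without any 1 WT mouse (adjusted p from 0.19 to 0.22). In KO the same step was -0.49 (SE 0.20, adjusted p = 0.20), from 229, 204 and 347 CPM to 247, 147 and 161 CPM, and 0 of 8 members were called beside 2.33% of all genes. With each mouse left out, this KO value spanned -0.84 to -0.14 (edgeR adjusted p 0.051 to 0.85). The steps of the genotypes were not tested against each other.

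C3aR binds the C3a fragment. C3ar1 stood at 441, 483 and 441 CPM in WT on day 7 and at 244, 282 and 229.7 CPM on day 10, with no overlap (51.7% of all genes). In KO it went from 539, 385 and 482 CPM to 223, 427 and 248 CPM, and mouse 67 on day 10 stayed within the day 7 range. The change was -0.85 log2 units in WT (SE 0.23, adjusted p = 0.0058) and -0.65 in KO (SE 0.23, adjusted p = 0.03). C3ar1 and C5ar1 were thus the 2 of 6 testable members called from day 7 to day 10 in each genotype, both lower, beside 18.1% of all genes called lower in WT and 17.1% in KO (37% and 36.8% in either direction). The C3ar1 call in WT was lost without mouse 66 (-0.81, adjusted p = 0.074). The C3ar1 call in KO was lost in 6 of 14 alternative settings, among them without mouse 64 (-0.36, adjusted p = 0.31) and without mouse 68 (-0.51, adjusted p = 0.23).

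Neither receptor differed between genotypes past the threshold on days 8 to 10. C3ar1 had log2 fold changes, KO against WT, of -0.25 (-0.72 to 0.23, adjusted p = 0.94), 0.03 (-0.44 to 0.50, adjusted p = 1) and 0.25 (-0.22 to 0.72, adjusted p = 0.87) on days 8, 9 and 10. For C5ar1 they were 0.04 (-0.38 to 0.47, adjusted p = 0.99), 0.42 (-0.01 to 0.85, adjusted p = 0.62) and 0.45 (0.02 to 0.88, adjusted p = 0.64). With each mouse left out, the C5ar1 values spanned 0.155 to 0.566 on day 9 and 0.217 to 0.611 on day 10. The KO libraries spread widely, and in each KO group the high-Ddx3y library held the highest value of both receptors. Over the 8 groups of both genotypes it was highest in 4 for C3ar1 and in 6 for C5ar1, which was noticed after the values were seen. For C3ar1 the sign on days 9 and 10 turned negative, and for C5ar1 the sign on day 8 did, without the high-Ddx3y libraries.

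Several macrophage markers moved with the receptors, and Apoe made up most of their sum on day 7. The summed level of the 10 macrophage markers went from 4959 to 5849 TPM on day 7 to 1952 to 2168 TPM on day 10 in WT, and from 4506 to 6963 to 1977 to 2571 TPM in KO. Of these 10, 6 were called lower and 2 higher in WT, and 7 lower and 1 higher in KO, from day 7 to day 10. Apoe alone went from 3276 to 4056 TPM to 446 to 548 TPM in WT and from 2652 to 4942 to 224 to 597 TPM in KO. The other 9 markers summed to 1667 to 1793 TPM on day 7 and 1505 to 1620 TPM on day 10 in WT, and to 1854 to 2081 and 1752 to 1974 TPM in KO, a split made after the values were seen. Among them, Csf1r, Fcgr1, Cd5l and Vcam1 were called lower in both genotypes, Mrc1 was called higher in both, and Adgre1 was called in neither. The 10 dendritic cell markers were higher in sum on day 10, going from 3437 to 4295 TPM to 9240 to 11510 TPM in WT and from 4174 to 5207 to 8240 to 15170 TPM in KO. The 10 neutrophil markers went from 5617 to 11420 TPM to 17300 to 23770 TPM in WT, and in KO from 7954 to 22570 to 11180 to 21460 TPM. In each KO group the library lowest in C3ar1 and C5ar1 was also the lowest in summed macrophage markers (mouse 67 on days 7, 8 and 9, mouse 64 on day 10), whereas in WT the library lowest in that sum was also lowest in C3ar1 on days 7, 8 and 10 and in C5ar1 on day 9, and in both on none of the 4 days. Without Apoe the KO match held on days 7, 8 and 10 and not on day 9, when mouse 68 had the lowest sum of the other 9. The part of these shifts in cell make-up in the receptor values was not tested. On day 7, where Ptx3, Cfp and C3 stood apart, the summed basophil and mast cell markers were at 132.2 to 171.3 TPM in WT and 156.1 to 524.8 TPM in KO, and 0 of these 6 and 0 of the 10 neutrophil markers were called. The dendritic cell and macrophage sums of that day are given above; 0 of 10 dendritic cell markers and 1 of 10 macrophage markers, Fcgr1, were called. The level of Fcgr1 was 92.5 ± 7.55 CPM for WT and 128 ± 6.17 CPM for KO (SD, n = 3). The part of these markers in the day 7 values of Ptx3, Cfp and C3 was not tested either.

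The inhibitors were low and were called in none of the tested comparisons. C1 inhibitor blocks the classical and lectin pathway proteases, and Serping1 was counted at 3 to 40 reads per library, 0.120 to 1.61 CPM. Its values within a group spread more than 2-fold in all groups, and the high-Ddx3y library held the highest value in each of the 8. Decay-accelerating factor takes the C3 convertases apart on the cell's own surface. Cd55 was at 3.81 to 7.39 CPM over all libraries, with group means from 4.04 ± 0.163 CPM (SD, n = 3) in WT on day 7 to 6.203 ± 1.41 CPM in KO on day 8. In WT all Cd55 values on day 10 (4.70, 6.08 and 5.57 CPM) were above those on day 7 (3.85, 4.12 and 4.15 CPM), a change that did not pass the threshold (adjusted p = 0.15). The groups of 51.7% of all genes tested did not overlap in that comparison.

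KO against WT, 0 of the 8 members were called on day 8 (0.00688% of all genes were), on day 9 (0.00688%) and on day 10 (0.0138%). With so few calls over all genes, these counts do not set the members apart. The edgeR test gave 859, 1185 and 1061 genes an unadjusted p under 0.05 on those days, and DESeq2 also called 0 members. The median log2 fold change of the 8 was 0.03, 0.14 and 0.26, beside -0.0029, 0.00035 and 0.0024 over all genes.

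The rest of the system was read from a list of 52 other complement and pentraxin genes, of which 29 could be tested, 15 had too few counts and 8 had none. KO against WT, 0 of the 29 were called on days 7, 8, 9 and 10, beside 1.45%, 0.00688%, 0.00688% and 0.0138% of all genes, with medians of -0.02, -0.06, 0.02 and 0.07 log2 units. From day 7 to day 10 more of them fell than rose. In WT 10 were lower and 1 higher (median -0.34, beside -0.015 over all genes), and in KO 7 were lower and 3 higher (median -0.45, beside 0.0033). Over all genes tested, 18.1% were called lower in WT and 17.1% in KO, and 37% and 36.8% in either direction. The falls in KO were all among those in WT: C1qb and C1qc of the C1q recognition molecule, C1ra, the second C5a receptor C5ar2, Cd93, Clu and Colec12. They make 70% of the WT falls and 100% of the KO falls, where over all genes the shared falls were 69.7% of those in WT and 73.8% of those in KO. C2, Fcna and Sez6l2 were called lower in WT only, and the rises were Fcnb in WT and C1qbp, C4a and Masp2 in KO, with none in common. The difference between KO and WT of the change from day 7 to day 10 was called for 0 of the 29, beside 0.0619% of all genes (edgeR), so these lists do not show that any of the genes changed differently in the genotypes. C4a shares near-identical sequence with C4b, so its count is uncertain. Over the same days, 6 of 10 macrophage markers were called lower and 2 higher in WT, and 7 lower and 1 higher in KO. Of 10 neutrophil markers, 5 were called higher and 1 lower in WT, and 0 higher and 2 lower in KO. The part of such shifts in the falls and rises of the other complement and pentraxin genes was not tested.

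Clu, which encodes clusterin, an inhibitor of the terminal complex, fell in both genotypes. It went from 15.03 ± 0.768 to 6.01 ± 0.170 CPM in WT (-1.32 log2 units, SE 0.13, adjusted p = 3.8e-07) and from 17.6 ± 2.45 to 5.84 ± 1.03 CPM in KO (-1.59, SE 0.13, adjusted p = 4.8e-08). The scavenger collectin Colec12 went from 20.4 ± 0.948 to 7.71 ± 0.151 CPM in WT (-1.41, SE 0.25, adjusted p = 0.00021) and from 15.5 ± 3.26 to 7.56 ± 2.82 CPM in KO (-1.04, SE 0.25, adjusted p = 0.0028). Without mouse 64 the KO value of Colec12 was -0.68 (adjusted p = 0.065). Fcnb, ficolin B, which opens the lectin pathway, rose in WT from 11.2 ± 1.26 to 20.1 ± 5.5 CPM (0.85, SE 0.32, adjusted p = 0.04), a call lost without any 1 WT mouse (adjusted p = 0.11 without 63 and without 65, and 0.31 without 66, where the value was 0.61). C1qbp, a mitochondrial protein that also binds C1q, rose in KO from 44.3 ± 3.54 to 56.0 ± 4.30 CPM (0.34, SE 0.08, adjusted p = 0.0025). Without mouse 67 that rise was 0.21 and missed the threshold (adjusted p = 0.085). SD and n = 3 apply to each of these means.

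**Figure D4:**
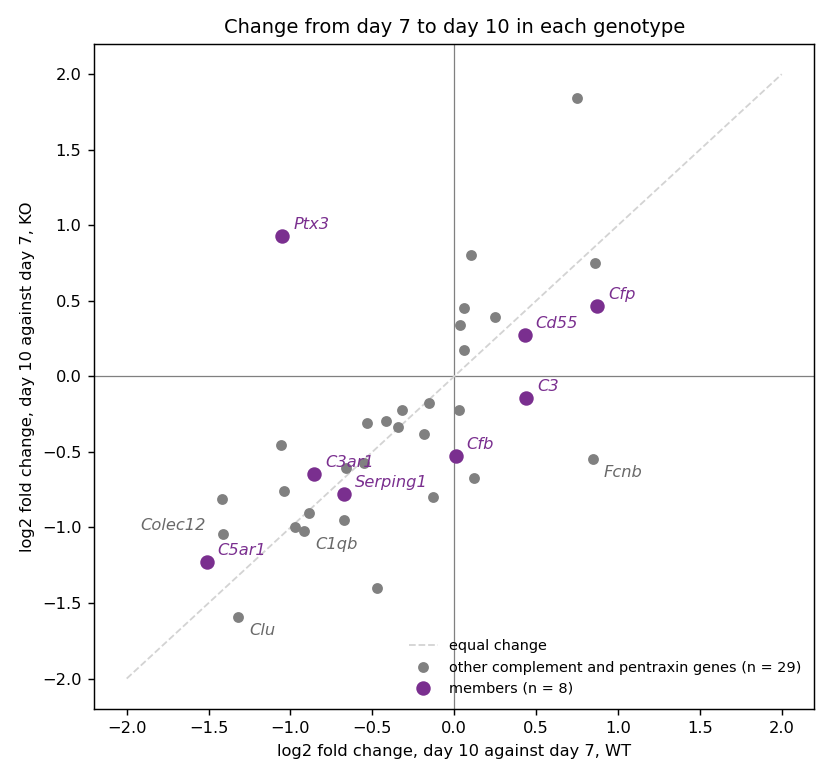
Log2 fold change from day 7 to day 10 in WT (horizontal) and KO (vertical), for the 8 members in purple and 29 other complement and pentraxin genes in grey. The dashed line marks equal change. C5ar1 and C3ar1 lie near that line at negative values, while Ptx3 lies off it, at -1.05 in WT and 0.93 in KO; Ptx3 and Cfp were chosen on day 7 libraries.

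Across the 8 group means of log2 CPM, the members did not follow 1 pattern. C3ar1 and C5ar1 ran together (Pearson r = 0.93), and so did C3 and Cfp (r = 0.82), while Ptx3 and Cfp did not (r = 0.28). These points share libraries and days, and r is a description over 8 groups. Among 10531 genes, those whose group means most resembled Ptx3 were Mtdh (r = 0.97), Rpl29 (0.97), Lars (0.96), Pibf1 (0.96) and Dnaaf5 (0.95). Their range was narrow: Mtdh ran from 140 CPM in KO on day 7 to 178 CPM in KO on day 8, while Ptx3 ran from 10.2 to 34.8 CPM. The genes most like Cfp were Cmtm7 (0.99), Prdm11 (0.99), Snx17 (0.99), Ppp1ca (0.99) and Sfxn2 (0.99). Cmtm7 ran from 60.0 CPM in WT on day 7 to 110 CPM in KO on day 8, and Cfp from 322 to 814 CPM.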

How the data were processed

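Messenger RNA was measured in 24 libraries, from strand-specific poly(A) kits of 2 kinds that the labels do not assign to libraries. The authors deposited whole-number counts per gene, a TPM table scaled by gene lengths, and gene symbols. The submitters' processing notes name FastQC 0.11.9, STAR 2.6.1, DESeq2 1.22.2 and build mm10, with no role; the counter and its strand setting are not given in the sources used here. GENCODE M21 (GRCm38) held 55094 of the 55487 versioned identifiers.

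Counts were fitted in edgeR 4.0.16 (R 4.3.3): filterByExpr, TMM factors, 1 coefficient per group over all 24 libraries, 16 residual degrees of freedom, quasi-likelihood test, Benjamini-Hochberg adjusted p under 0.05 over 14535 genes. CPM uses those factors; deposited TPM serves only levels between genes and marker sums. Replicates are separate mice per the labels, and the 24 pairs within groups differed by more than sampling noise (chi-square per degree of freedom 7.1 to 125). The code was tested on simulated data. Alternatives used DESeq2 1.42.0 and limma 3.58.1 on log2(TPM + 1) and, for the replicate block in KO against WT, limma on the counts. Intervals are 95% for a single gene. Counts are PCR-amplified reads without molecular identifiers, so precision from counts alone covers counting error only.

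The members, lists and motifs were chosen with earlier results of these data known. Named beyond the members were, among other listed genes with an average log2 CPM above 1, any called for KO against WT on days 8 to 10 (0) and, per genotype, up to 2 called genes with the largest rise and 2 with the largest fall from day 7 to day 10, and the 5 genes most like Ptx3 and Cfp. Other names were chosen after their values were seen.

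Mouse numbers recur across days in the labels, which is where the pairing comes from. Same-numbered libraries deviated together in WT (mean r of 0.36 over 18 pairs of days, 17 over 0.1). In KO the mean r was 0.0057, with 8 of 18 over 0.1, but single pairs ranged from -0.785 to 0.782. Number 67 gave 0.782 between days 8 and 9 and -0.785 between days 9 and 10.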

Additional observations from a re-analysis of the deposited data

Results flagged for a closer look

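The net change of Ptx3 from day 7 to day 10 had the opposite sign in every mouse number of the 2 genotypes: lower on day 10 in all 3 WT numbers and higher in all 3 KO numbers. The day 7 and day 10 groups did not overlap in either genotype, so any pairing of numbers gives these signs. Between these days the groups of 51.7% of all genes in WT and 43.2% in KO did not overlap. The mean changes differed by 1.97 log2 units. The test of this difference is not used here, because the day 7 libraries chose Ptx3. The KO numbers also do not keep 1 animal across days. The parts of the time course that did not use day 7 showed a difference of the same sign between days 8 and 10 (0.72 log2 units for Ptx3), which did not pass over all genes (edgeR adjusted p = 1).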

How the results depend on the processing

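The log2 fold changes tested for Ptx3, Cfp, C3, C3ar1, C5ar1, Clu, Colec12, Fcnb and C1qbp, and the counts of members called, were refitted under 14 settings: DESeq2 size factors or its Wald test, no filter on low counts or a mean of 50, only the libraries compared, limma on log2(TPM + 1), each mouse left out, the mouse as a replicate block, and no high-Ddx3y libraries. Of 490 refits of the fold changes, 454 kept direction and side of the threshold, 19 lost and 4 gained the call, and 13 changed sign. The counts of 0 members for KO against WT on days 8, 9 and 10, for KO day 9 against day 8 and for the difference of the change from day 8 to day 10 held in all 14.

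Without the high-Ddx3y libraries the KO against WT sign turned for C5ar1 on day 8 (-0.21), Ptx3 on day 9 (-0.047) and C3ar1 on days 9 (-0.36) and 10 (-0.12). With each mouse left out, values spanned -0.031 to 0.087 for Cfp on day 8, -0.21 to 0.20 for C5ar1 on day 8, -0.071 to 0.23 for Ptx3 on day 9, -0.24 to 0.21 for C3ar1 on day 9, -0.12 to 0.13 for C3 on day 10, -0.092 to 0.44 for C3ar1 on day 10, and -0.16 to 0.42 for C3 in KO from day 7 to day 8. None of these was called in the report.

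Counts of members called moved as follows, and the cause was not tested. With only the libraries compared, they were 3 (WT day 8 against 7), 3 (WT day 10 against 9), 4 (WT day 10 against 7) and 1 (KO day 10 against 7). The TPM scale gave 4 for WT day 10 against 7 and 1 for KO day 8 against 7; it also shifted the median of all genes by 0.21 in WT and 0.25 in KO from day 7 to day 10. DESeq2 gave 2 for WT day 10 against 9, and leaving out the high-Ddx3y libraries gave 2 for KO day 8 against 7. The replicate block gave 1 for KO day 10 against 9, Ptx3 (-0.59, adjusted p = 0.035), and changed no other call named. For comparisons between days the block was a coefficient per mouse number in edgeR, although the KO numbers do not follow 1 animal. For KO against WT it was a limma fit of the counts, with a consensus correlation of 0.0046 between libraries of a mouse number. With each mouse left out, counts spanned 0 to 1 for WT day 8 against 7 and for WT day 9 against 8, 0 to 2 for WT day 10 against 9, 1 to 3 for WT day 10 against 7, 0 to 3 for KO day 10 against 9 (3 without mouse 67) and 1 to 2 for KO day 10 against 7.

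Counts over all genes moved further: KO against WT from 11 to 523 on day 7 (211 in the report), 1 to 30 on day 8, 1 to 90 on day 9 and 1 to 82 on day 10. Day steps spanned 17 to 2180 for WT day 9 against 8 (785), 0 to 1064 for WT day 10 against 9 (523), 0 to 868 for KO day 9 against 8 (338) and 0 to 2090 for KO day 10 against 9 (14). Against day 7 they spanned 4397 to 7491 for WT day 8 (6315), 4526 to 6693 for KO day 8 (6110), 3255 to 6877 for WT day 10 (5376; lowest without mouse 66) and 3201 to 7499 for KO day 10 (5353; lowest without mouse 64). The fewest counts were those of Cfb (2 to 34 per library) and Serping1 (3 to 40); the part of depth in their spread was not tested.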

Other observations

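Serping1 was highest in the high-Ddx3y library of all 8 groups, which held for 40 of 14535 genes (0.275%); this was noticed after the values were seen, and its counts were 3 to 40 per library. The 4 WT groups repeat mouse 63, so the 8 groups are not separate observations.

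Serping1 and Cd55, both inhibitors, ran in opposite directions over the 8 group means (Pearson r = -0.84), and C3 and Cfb ran in the same direction (r = 0.70). Cd55 ran in the same direction as Cfp (r = 0.78) and C3 (r = 0.75). These are descriptions over points that share libraries, with Serping1 and Cfb at low counts.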
